A study of Mus musculus with 48 samples.

Results

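The trefoil factors *Tff1*, *Tff2* and *Tff3* were followed in the colon of mice with and without the clock gene *Bmal1* in the intestinal epithelium. They are the 3 of the 55401 genes of the count table whose Ensembl identifiers carry these symbols in GENCODE vM21, a rule that uses names and not levels. The table gives sequencing reads per gene in colon tissue of 48 male C57BL/6J mice aged 18 to 20 weeks, collected at 6 circadian times (CT1, CT5, CT9, CT13, CT17 and CT21) with 4 mice per genotype and time. With these mice the study addressed whether loss of the intestinal clock alters immune functions of the colon. Both groups carried floxed *Bmal1* (Bmal1fl/fl). Bmal1IEC-/- mice carried in addition a Villin CRE allele (Villin CRE/wt), and their control littermates none (Villin wt/wt). The Villin promoter drives Cre in intestinal epithelial cells, so that muscle, immune and other cells of the tissue keep *Bmal1* in both groups. All mice had free access to food, were housed singly with running wheels and were killed during day 2 in constant darkness. Values of 46 mice, 24 control and 22 Bmal1IEC-/-, enter the tests, and all 48 mice are shown.

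Trefoil factors are small secreted peptides that bind to mucins and help to protect and repair the lining of the gut. *Tff1* is made by surface mucous cells of the stomach, *Tff2* by mucous neck and gland cells of the stomach and by Brunner's glands, and *Tff3* by goblet cells of the intestine, which release it together with the mucin *Muc2*. Each peptide is built from a trefoil domain, a fold held together by disulfide bonds between cysteines, which TFF1 and TFF3 contain once and TFF2 as a tandem pair.

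The genes lie side by side on the minus strand of chromosome 17 (GRCm38), *Tff3* (ENSMUSG00000024029) at chr17:31125306-31129646, *Tff2* (ENSMUSG00000024028) at chr17:31141049-31144282 and *Tff1* (ENSMUSG00000024032) at chr17:31161395-31165277. Their exons span 493, 584 and 703 bases. The stretches of coding sequence from GENCODE vM21 that run from the first to the last cysteine codon behind the signal peptide are shown, 5′ to 3′ in the sense of the gene, because they hold the feature that defines the family and show how far the members can be told apart by reads. Capitals mark the cysteine codons (TGC or TGT) in frame.
Tff1: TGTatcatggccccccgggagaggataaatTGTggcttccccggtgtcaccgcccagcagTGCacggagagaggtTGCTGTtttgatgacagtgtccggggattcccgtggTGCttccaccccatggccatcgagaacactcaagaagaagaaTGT
Tff2: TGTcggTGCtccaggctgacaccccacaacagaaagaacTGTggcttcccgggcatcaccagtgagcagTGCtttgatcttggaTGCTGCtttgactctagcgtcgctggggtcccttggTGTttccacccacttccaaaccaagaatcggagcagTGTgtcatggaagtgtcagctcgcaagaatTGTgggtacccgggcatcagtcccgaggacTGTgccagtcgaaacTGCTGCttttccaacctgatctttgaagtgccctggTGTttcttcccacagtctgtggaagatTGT
Tff3: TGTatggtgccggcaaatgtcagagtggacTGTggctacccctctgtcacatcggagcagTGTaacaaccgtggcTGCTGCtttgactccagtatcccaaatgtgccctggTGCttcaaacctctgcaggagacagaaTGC
*Tff1* and *Tff3* each had 7 cysteine codons in these stretches of 156 and 141 bases, and *Tff2* had 14 in 297 bases. Over the whole coding sequence, *Tff1* and *Tff2* shared 66% of aligned bases, *Tff2* and *Tff3* 64% and *Tff1* and *Tff3* 60%. The longest run of identical bases between any pair was 14 bases, against reads of 150 bases. No exon of *Tff2* or *Tff3* overlapped another gene, whereas 221 of the 703 exonic bases of *Tff1* also lie in the antisense gene *Gm15318*, which had 17 counts over all mice.

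Between 3144997 and 4785844 reads were counted per mouse. Counts divided by DESeq2 size factors are called normalized counts here. A count of 0 allows up to 3 counts in a mouse, a floor of 2.42 to 3.69 normalized counts that covers counting error only. *Arntl*, the symbol of *Bmal1* in the table, ran from a mean of 26.4 normalized counts at CT9 to 259.96 at CT1 in control mice. Bmal1IEC-/- mice had means of 113.6 and 177.3 at these times, above control at CT9 and below it at CT1. Averaged over all times, the genotypes lay close together, with 132.1 for control and 127.5 for Bmal1IEC-/-. The tissue includes cells without Cre, and the source of the *Arntl* reads in Bmal1IEC-/- mice was not tested. *Nr1d1*, a clock gene that BMAL1 activates, had a log2 fold change of -1.48 ± 0.12 (SE) between genotypes (adjusted p = 2.33e-13, edgeR). Bmal1IEC-/- mice SV384 and SV385 at CT1, which the tests leave out, included the mice with the lowest smooth muscle and the highest epithelial sums of this genotype. The 6 smooth muscle genes of the marker list summed to 774 and 3183 CPM (counts scaled to the library total) in this pair against 3115 to 5311 in the other Bmal1IEC-/- mice, and 9 epithelial genes to 10291 and 12370 CPM against 8697 to 10864, so that 1 value of each pair lay within the range of the others.

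Per length, *Tff3* was among the most abundant transcripts of the colon, *Tff2* was rare, and *Tff1* was at the limit of detection. In control mice, *Tff3* had 3268 ± 392.2 (SD, n = 24) TPM (counts scaled to exonic length and library total), rank 19 of 21897 protein-coding genes. *Tff2* had 12.3 ± 10.9 TPM in the same mice and *Tff1* 0.134 ± 0.364 TPM. In Bmal1IEC-/- mice, *Tff3* had 2870 ± 286 (SD, n = 22) TPM and rank 25, and *Tff2* had 0.358 ± 0.904 TPM. Among 20 goblet cell genes, 4 had a higher mean TPM than *Tff3* in control mice (*Guca2a*, *Muc2*, *Agr2* and *Klk1*) and 6 in Bmal1IEC-/- mice, where *Zg16* and *Spink4* had joined them. The TPM of *Tff3* was 0.479 times that of *Muc2*, the main gel-forming mucin of the colon, in control mice and 0.463 times in Bmal1IEC-/- mice.

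**Figure D1:**
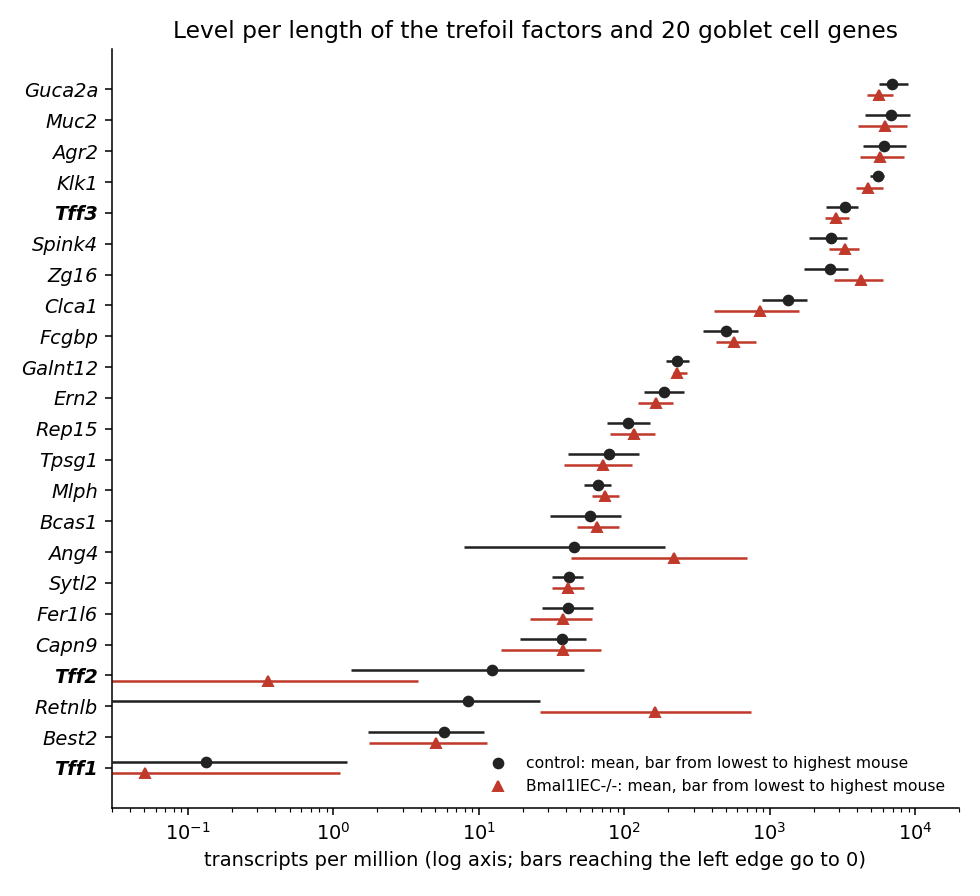
Level per length, in TPM on a log axis, of the trefoil factors (bold) and 20 goblet cell genes in 24 control mice (black circles) and 22 Bmal1IEC-/- mice (red triangles), with the mean as a symbol and a bar from the lowest to the highest mouse. *Tff3* lies among the most abundant goblet cell genes in both genotypes, and the mean of *Tff2* is 12.3 TPM in control and 0.358 TPM in Bmal1IEC-/- mice.

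*Tff2* was detected in each of the 24 control mice and was nearly absent in Bmal1IEC-/- mice at each of the 6 times. Control mice had 1 to 44 counts, 220 in sum, and the 22 Bmal1IEC-/- mice had 6 counts in sum, with 18 mice at 0 and no mouse above 3. Normalized counts averaged 8.98 ± 7.95 (SD, n = 24) in control mice and 0.264 ± 0.663 (SD, n = 22) in Bmal1IEC-/- mice. The ratio of control to Bmal1IEC-/- was 34.3, with an exact 95% interval from 15.5 to 94.5 that covers counting error only. The fitted log2 fold change was -4.53 ± 0.41 (SE), with an adjusted p = 7.07e-12 (edgeR quasi-likelihood F test, Benjamini-Hochberg over all genes), and -4.44 with all 48 mice. Of 14776 genes tested, 0.697% were lower past both thresholds used here, an adjusted p under 0.05 and a fold change over 1.5. A permutation of the genotype within circadian times, two-sided with 100000 resamples, gave p = 1e-05 for the difference of -8.72 normalized counts, the smallest value it can give. *Tff2* passed the filter on low counts through control mice alone, since 7 of them and 0 Bmal1IEC-/- mice had at least 10 counts. In tissue RNA, fewer cells that express a gene and less RNA per cell cannot be told apart.

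At CT1, control mice had 9.36, 0.962, 14.4 and 11 normalized counts of *Tff2* (replicates SV454, SV455, SV468 and SV469). Bmal1IEC-/- mice had 0 and 1.03 there (SV479 and SV480), and 1.24 and 0 in the left-out mice SV384 and SV385. Control mouse SV455 was thus as low as the Bmal1IEC-/- mice, and the other 3 stood above them. Control mice at CT5 had 5.06, 6.53, 3.23 and 9.74, and all 4 Bmal1IEC-/- mice had 0. At CT9, control values were 14.7, 6.36, 6.38 and 4.52, and Bmal1IEC-/- values were 2.77 (SV400), 0, 0 and 0. The genotypes did not overlap at either time. At CT13, where the control mean was lowest, control mice had 6.45, 5.39, 1.04 and 3.26, and all 4 Bmal1IEC-/- mice had 0. At CT17, control mice had 5.49, 5.32, 38.4 and 23.2 (SV398, SV417, SV438 and SV453), and Bmal1IEC-/- mice had 0, 0, 0 and 1. Control mice SV438 and SV453 held the highest values of the gene in the series. Control mice at CT21 had 6.92, 13.2, 6.7 and 8.03, and Bmal1IEC-/- mice had 0, 1.01, 0 and 0. All 4 Bmal1IEC-/- mice lay below all 4 control mice at CT5, CT9, CT13, CT17 and CT21, as 1.85%, 2.2%, 6.36%, 2.69% and 2.34% of the genes tested did at these times.

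**Figure D2:**
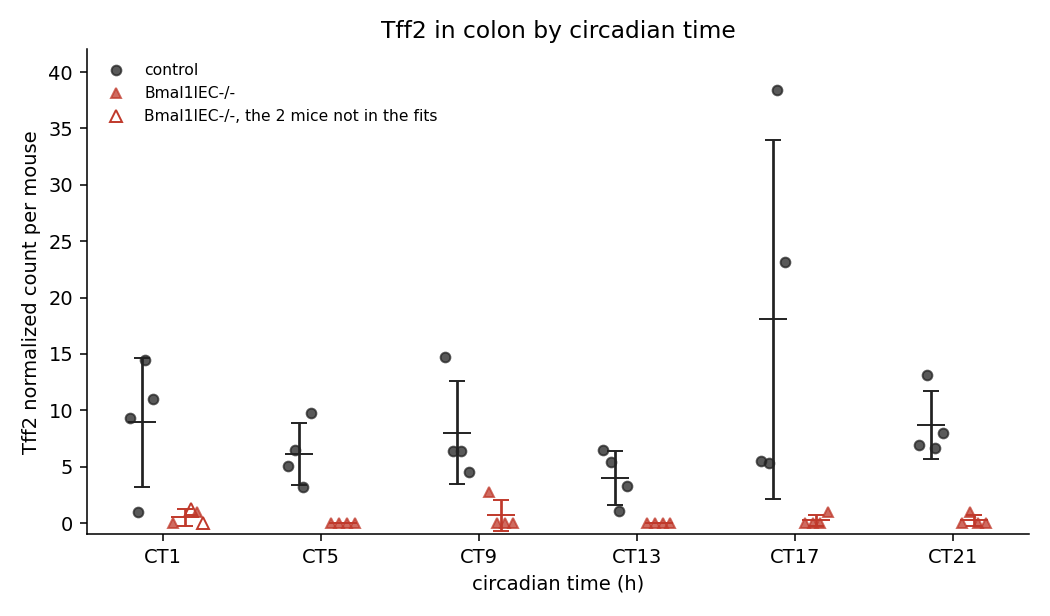
Normalized counts of *Tff2* in each mouse (y axis) by circadian time in hours (x axis), control as black circles and Bmal1IEC-/- as red triangles, with mean and SD of 4 mice a group (2 for Bmal1IEC-/- at CT1, where open triangles show the mice outside the tests). Of the 24 control mice, 22 lie above each of the Bmal1IEC-/- mice, and the highest value is 38.4 at CT17.

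Time by time, the difference in *Tff2* passed both thresholds at CT5, CT13, CT17 and CT21. Bmal1IEC-/- mice had no count at CT5 (adjusted p = 0.0473 from edgeR) and CT13 (adjusted p = 0.0302), so a floor of 3 counts over the group was used. Against this floor, the control sums of 25 counts at CT5 and 16 at CT13 gave ratios of 8.41 and 6.3. These 2 ratios leave out the counting error of the control sums and the spread between mice, so they are no strict lower bounds. At CT17, the ratio of control to Bmal1IEC-/- was 77.2 (95% counting interval 13.4 to 3087, adjusted p = 0.000248), and at CT21 it was 33.7 (5.7 to 1366, adjusted p = 0.0397). At CT1 the ratio was 16.8 (2.81 to 682.2, adjusted p = 0.113) and at CT9 10.6 (3.33 to 54.2, adjusted p = 0.0619), and neither passed. At CT1 it passed with the left-out mice SV384 and SV385 included (adjusted p = 0.00521). Genes lower past both thresholds made up 0.447%, 0.115%, 0.494%, 1.05%, 0.433% and 0.135% of those tested at CT1, CT5, CT9, CT13, CT17 and CT21. Leaving out 1 mouse at a time moved the adjusted p between 0.0246 and 0.164 at CT5, between 0.0182 and 0.0987 at CT13 and between 0.0215 and 0.157 at CT21, so these calls were lost without some mice, whereas at CT17 it stayed between 6.2e-05 and 0.00416. At CT17 the log2 fold change of -5.66 became -4.94 without control mouse SV438, which held 44 of the 76 control counts, and -7.22 without Bmal1IEC-/- mouse SV481, which held the only count of its group. At CT1 it was -3.8, and -6.19 without SV480 and -2.96 without SV479. Without SV481 or SV480 the Bmal1IEC-/- mice at that time were all at 0, so these fitted values depend on the prior count and are no bound.

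The main test found no rhythm of *Tff2* at this depth. In control mice the JTK_cycle test, a rank test for 24-h rhythms, gave p = 0.548 (n = 24), and a fitted cosine had an amplitude of 3.66 ± 2.27 (SE) normalized counts around 8.98. Leaving out each control mouse in turn gave JTK_cycle p from 0.109 to 1 (n = 23), while an edgeR F test of the cosine, with an adjusted p = 0.116 over 46 mice, passed without control mouse SV401 (adjusted p = 0.042). Night against day in control mice gave a log2 difference of 0.43 (SE 0.35, adjusted p = 0.341 from edgeR). By day (CT1, CT5 and CT9) *Tff2* was lower in Bmal1IEC-/- mice by a log2 difference of -3.89 (SE 0.65, adjusted p = 7.66e-05), and by night (CT13, CT17 and CT21) by -5.22 (SE 0.64, adjusted p = 5.74e-08). The interaction of genotype and period was -1.33 (SE 1.24, adjusted p = 0.799), so a difference between day and night was not shown. Without Bmal1IEC-/- mouse SV400 the interaction was -0.18 and the day value -5.04.

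Genes of the stomach, where *Tff2* is abundant, were near 0 in these libraries apart from *Muc6*. Of 10 stomach genes, *Gkn1* and *Gkn2*, which encode gastrokines of the gastric surface, had 0 counts in all mice. *Pgc*, *Cblif*, *Atp4b* and *Gast* did not exceed 2 counts in any of the 46 mice, and *Atp4a*, the acid pump, reached 4 counts in control and 7 in Bmal1IEC-/- mice. The list summed to 1.95 to 39.5 CPM in control and 1.15 to 28 CPM in Bmal1IEC-/- mice, and *Muc6* made up most of the mean. Of 8 pancreas genes, *Cela1* and *Cpb1* alone had more than 3 counts in a mouse, and the sums were 36.5 to 58.4 CPM in control and 40 to 57.2 CPM in Bmal1IEC-/- mice. *Muc6*, the gland mucin with which *Tff2* is stored in the stomach, averaged 44.2 ± 43.5 (SD, n = 24) in control mice and 34.5 ± 29.3 (SD, n = 22) normalized counts in Bmal1IEC-/- mice, a log2 difference of -0.21 (SE 0.23, adjusted p = 0.632 from edgeR). *Muc6* was thus measured in both genotypes, unlike *Tff2*. *Muc6* differed by time of day, with a log2 difference of 1.43 between night and day in control mice (SE 0.47, adjusted p = 0.0139), and JTK_cycle gave p = 2.63e-07 in control (n = 24) and 0.000106 in Bmal1IEC-/- mice (n = 22). *Reg4* and *Kit*, listed here for deep crypt secretory cells of the colon, had log2 fold changes between genotypes of -0.24 (adjusted p = 0.118) and -0.11 (adjusted p = 0.206). Which cells of the tissue their reads came from was not tested.

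*Tff3*, the goblet cell member, was slightly lower in Bmal1IEC-/- mice. Normalized counts averaged 2015 ± 250.1 (SD, n = 24) in control mice and 1789 ± 176.5 (SD, n = 22) in Bmal1IEC-/- mice. The log2 fold change was -0.17 ± 0.04 (SE), a fold of 0.886 with an adjusted p = 0.00419 (edgeR), and thus short of the 1.5-fold threshold. Of the genes tested, 5.43% were lower at an adjusted p under 0.05 whatever their fold. A permutation test of the genotype within circadian times gave p = 0.00048 for the difference of -226.4 normalized counts. With SV384 and SV385 included, the log2 difference was -0.13 (SE 0.05, adjusted p = 0.111 from edgeR), so that this call depended on leaving them out, while the permutation of the genotype over 48 mice gave p = 0.0274.

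At CT1, control mice had 1668, 1833, 2037 and 1692 normalized counts of *Tff3* (SV454, SV455, SV468 and SV469). Bmal1IEC-/- mice had 1785 and 1864 (SV479 and SV480), within the control range, and the left-out mice SV384 and SV385 had 2165 and 2829.8, above all 4 control mice. In TPM, SV384 had 3080, within the 2796 to 3355 of these control mice, and SV385 had 3608, above them. The 20 goblet cell genes summed to 18884 and 22517 CPM in the left-out mice, against 27003 to 30730 CPM in control mice at CT1. At CT5, control values were 1879, 2042, 1721 and 1808 normalized counts, and Bmal1IEC-/- values were 1551, 1709.7, 1634 and 1699, all below the lowest control mouse. At CT9, control mice had 2257, 1715, 1523 and 2029.7, and Bmal1IEC-/- mice had 1985, 1446, 2209 and 1854. Both genotypes were widely spread at CT9 and overlapped. At the night times the genotypes did not overlap. At CT13, control mice had 2060.1, 2025, 1985 and 2079, and Bmal1IEC-/- mice had 1871, 1588, 1826 and 1694. At CT17, control values of 2136, 2285, 2095 and 2191 stood against 1906, 1834, 1780.4 and 1785. At CT21, control mice reached 2544, 2060.4, 2349 and 2353, the highest group of the series, and Bmal1IEC-/- mice had 1989.5, 1543, 1996 and 1807. All 4 Bmal1IEC-/- mice lay below all 4 control mice at each of these 3 night times, as they did at CT5, to be read against the shares of genes given above for *Tff2*.

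**Figure D3:**
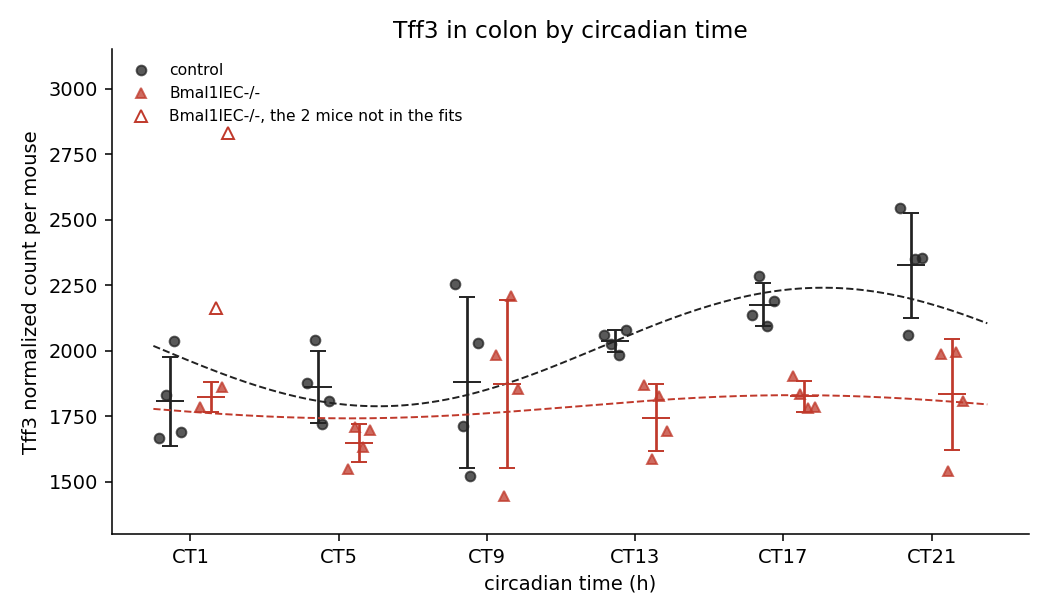
Normalized counts of *Tff3* in each mouse (y axis, not starting at 0) by circadian time in hours (x axis), control as black circles and Bmal1IEC-/- as red triangles, with mean and SD, and a least-squares 24-h cosine over the 46 mice as a dashed line for each genotype. Control means rise from 1807 at CT1 to 2327 at CT21, Bmal1IEC-/- means stay between 1648 and 1874, and the 2 mice outside the tests (open) lie above the control mice of CT1.

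Ordered by their means, the 12 groups ran from 2327 ± 199.6 (SD, n = 4) in control mice at CT21 to 1648 ± 72.9 (SD, n = 4) in Bmal1IEC-/- mice at CT5. The 3 highest groups were the control mice of CT21, CT17 and CT13, in this order. Of the 11 pairs of neighbours in the order, 10 had overlapping ranges. The exception was control mice at CT17 and CT13, with 2095 to 2285 and 1985 to 2079 normalized counts. Time by time, the genotype effect on *Tff3* was not past the adjusted threshold at any time over the 46 mice. The log2 differences were 0.01 at CT1 (SE 0.12, adjusted p = 0.974 from edgeR), -0.18 at CT5 (0.1, adjusted p = 0.862) and -0.0025 at CT9 (0.1, adjusted p = 0.997). In the night they were -0.22 at CT13 (0.1, adjusted p = 0.207), -0.25 at CT17 (0.1, adjusted p = 0.375) and -0.34 at CT21 (0.1, adjusted p = 0.131).

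Pooled over the 3 times of each period, the genotype effect on *Tff3* passed the test by night and not by day. By day, control mice had 1850.4 ± 207.4 (SD, n = 12) and Bmal1IEC-/- mice 1774 ± 219.8 (SD, n = 10) normalized counts, a log2 difference of -0.06 (SE 0.06, adjusted p = 0.699 from edgeR). By night, control mice had 2180.3 ± 168.6 (SD, n = 12) and Bmal1IEC-/- mice 1802 ± 139.7 (SD, n = 12). The night log2 fold change was -0.27 ± 0.06 (SE), a fold of 0.827 (adjusted p = 0.00151). The genes lower at an adjusted p under 0.05 made up 1.12% of those tested by day and 2.35% by night. Except for SV421 with 1985, each control mouse of the night had more *Tff3* than the highest Bmal1IEC-/- mouse of the night, which had 1996. The test of the difference between the periods itself gave a log2 interaction of -0.21 (SE 0.08, adjusted p = 0.439), short of the threshold that 0.0677% of genes passed, so an effect limited to the night was not shown. Including SV384 and SV385 turned the day value to 0.03 (adjusted p = 0.819) and left the night value at -0.28 (adjusted p = 0.0146).

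**Figure D4:**
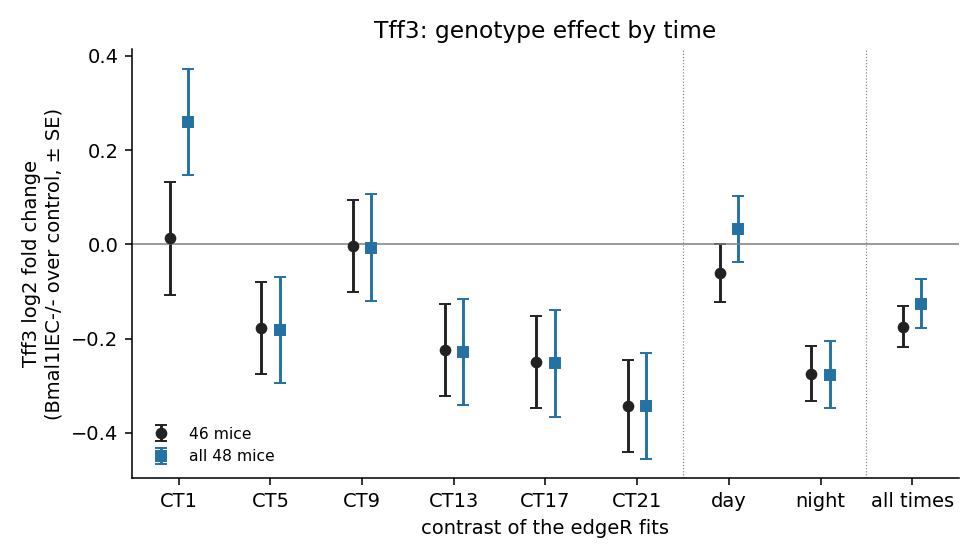
Log2 fold change of *Tff3*, Bmal1IEC-/- over control, with its SE (y axis), at each circadian time, by day, by night and over all times (x axis), from edgeR fits over 46 mice (black circles) and over all 48 mice (blue squares). Over 46 mice the value is -0.06 by day and -0.27 by night, and at CT1 it moves from 0.01 to 0.26 when the 2 left-out mice are included.

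*Tff3* showed a 24-h rhythm in control mice. JTK_cycle gave p = 0.00559 in control mice (n = 24), and adjusted over all genes q = 0.0356. A cosine fitted by least squares had a mean level of 2015, an amplitude of 226.1 ± 57.2 (SE) normalized counts, which is 11.2% of that level, and its peak at 18.1 h ± 0.967 (SE). The SE of the peak takes the cosine form as given, while the control means were highest at CT21 (2327) and lowest at CT1 (1807). Control mice had more *Tff3* by night than by day by a log2 difference of 0.23 (SE 0.06, adjusted p = 0.00126 from edgeR), and 18.9% of genes were likewise higher by night. Rhythms were common, since 25.7% of genes with at least 1 count had a JTK_cycle p under 0.05 in control mice. In Bmal1IEC-/- mice JTK_cycle gave p = 1 for *Tff3* (n = 22), against 15.3% of genes under 0.05. The fitted amplitude there was 44.2 ± 53.7 (SE) normalized counts, 2.48% of the mean level of 1787, and night and day differed by 0.02 on the log2 scale (SE 0.06, adjusted p = 0.874). The change of rhythm between genotypes, tested on the cosine and sine terms, had an adjusted p of 0.621 for *Tff3* and 0.943 for *Tff2*, and 0.92% of genes passed. A rhythm of *Tff3* in control mice with none detected in Bmal1IEC-/- mice is therefore not shown to be a difference between them.

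*Tff1* was at the limit of detection in colon. It had 1 count in control mice SV412 (CT9), SV438 (CT17) and SV433 (CT21) and in Bmal1IEC-/- mouse SV399 (CT17), and 0 in the other 44 mice. No mouse exceeded the floor of 3 counts, and part of the gene is shared with an antisense gene, so no fold is given. The filter on low counts removed it, and without a filter edgeR gave a log2 fold change of -0.59 ± 0.57 (SE, adjusted p = 0.642). The difference of -0.0733 normalized counts had p = 0.553 by permutation of the genotype within circadian times. *Muc5ac*, the surface mucin that accompanies *Tff1* in the stomach, had at most 1 count in any of the 46 mice.

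The goblet cell genes that surround *Tff3* moved in both directions between genotypes. Of 20 genes, all tested, 8 were higher and 4 lower in Bmal1IEC-/- mice at an adjusted p under 0.05, against 5.35% and 5.43% of all genes, and their median log2 difference was 0.01 beside 0 over all genes. *Retnlb*, which encodes a secreted peptide of goblet cells, rose by a log2 fold change of 4.19 (SE 0.41, adjusted p = 4.58e-11) and *Zg16*, a lectin of the mucus that binds bacteria, by 0.71 (SE 0.08, adjusted p = 8.51e-10). *Clca1*, a protease of the mucus layer, fell by 0.62 (SE 0.1, adjusted p = 1e-05) and *Guca2a*, which encodes guanylin, by 0.29 (SE 0.04, adjusted p = 3.17e-07). *Muc2* itself averaged 60759 ± 9884 (SD, n = 24) in control mice and 55809 ± 13466 (SD, n = 22) normalized counts in Bmal1IEC-/- mice, with a log2 difference of -0.13 (SE 0.08, adjusted p = 0.346). The list summed to 21565 to 32363 CPM in control and 20700 to 33149 CPM in Bmal1IEC-/- mice. *Muc2* weighs heavily in these sums, since *Clca1* averaged 6265 and *Guca2a* 5188 normalized counts in control mice. The mean sums of the list in control and Bmal1IEC-/- mice were 29149 and 22800 CPM at CT1 (n = 4 and 2). They were 27158 and 27506 CPM at CT5, and 26060 and 27595 CPM at CT9 (n = 4 each). At CT13 the sums were 26725 ± 2035 CPM (SD, n = 4) in control and 22666 ± 1666 CPM in Bmal1IEC-/- mice. The means at CT17 were 26884 and 26070 CPM, and at CT21 the sums were 28495 ± 2239 and 27899.9 ± 2331 CPM. The part of this list in the night difference of *Tff3* was not tested.

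**Figure D5:**
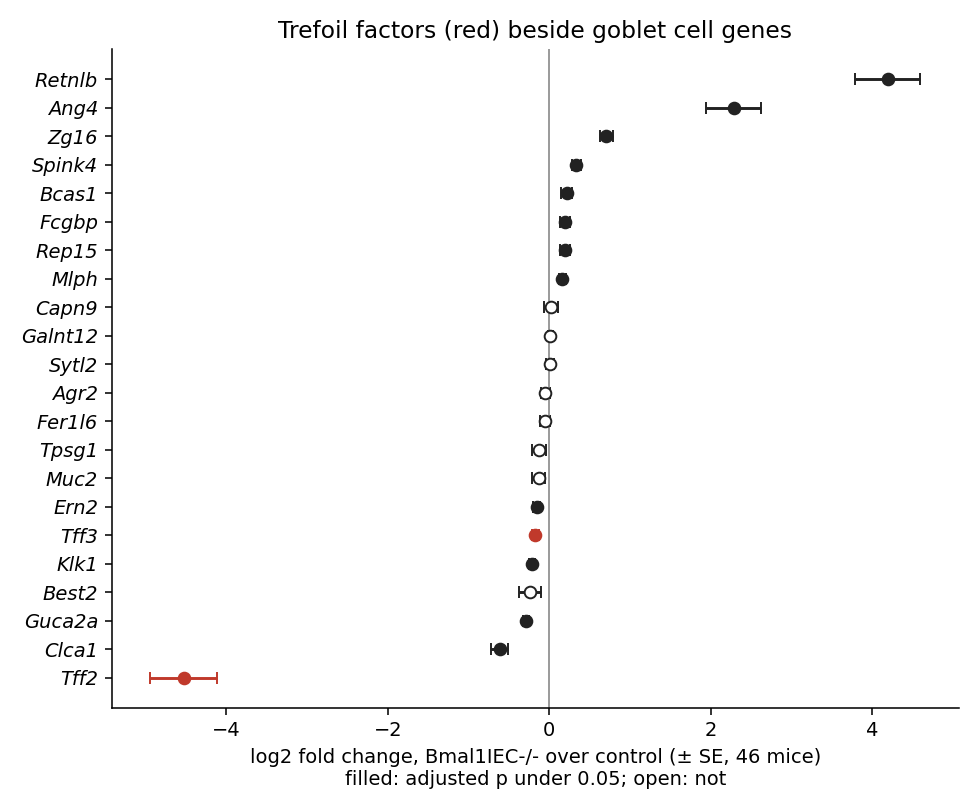
Log2 fold change between genotypes over 46 mice with its SE (x axis) for *Tff2* and *Tff3* (red) and 20 goblet cell genes (black), sorted by value, filled where the adjusted p of edgeR's test is under 0.05. *Tff2* lies at -4.53 and *Tff3* at -0.17, while *Retnlb* is at 4.19.

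Night against day in control mice, 2 goblet cell genes were higher and 6 lower at an adjusted p under 0.05, against 18.9% and 19.9% of all genes, with a median log2 difference of -0.12 beside -0.01 over all genes. The higher genes were *Galnt12* and *Guca2a*. *Tff3* was higher by night as these 2 were, while the 6 lower genes went the other way. By JTK_cycle, 13 of the 20 genes had p under 0.05 in control and 6 in Bmal1IEC-/- mice, against 25.7% and 15.3% of all genes. Across the 24 control mice, the rank correlation of *Tff3* with the 17 goblet cell genes that had a mean of at least 50 normalized counts ran from -0.79 for *Fer1l6* to 0.59 for *Galnt12*, and it was -0.11 for *Muc2*. These correlations describe mice that share the same 6 times and libraries.

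Of 11 transcription factors of the secretory lineage, 1 was higher and 1 lower between genotypes at an adjusted p under 0.05, against 5.35% and 5.43% of all genes, and the median log2 difference was 0.03. *Foxa2*, a forkhead factor of goblet cells, rose by a log2 difference of 0.32 (SE 0.11, adjusted p = 0.0472), and *Creb3l1*, a transmembrane factor of the secretory pathway, fell by 0.13 (SE 0.04, adjusted p = 0.0152). *Spdef*, which drives goblet cell maturation, had 785 ± 307.1 (SD, n = 24) and 663.5 ± 157.5 (SD, n = 22) normalized counts, with a log2 difference of -0.24 (SE 0.09, adjusted p = 0.0708). In control mice *Spdef* was higher by night by 0.77 (SE 0.14, adjusted p = 3.62e-05) and *Atoh1*, the master factor of secretory cells, by 0.63 (SE 0.14, adjusted p = 0.000458). In all, 4 of the 11 factors were higher and 2 lower by night in control mice, against 18.9% and 19.9% of all genes.

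Of 15 genes that encode binding partners or proposed receptors of trefoil peptides, 9 were tested. *Fcgbp* alone passed an adjusted p under 0.05, against 5.35% of all genes higher and 5.43% lower, and the others had values of 0.215 or more. *Fcgbp*, the mucus protein to which TFF3 is bound, rose by a log2 difference of 0.2 (SE 0.06, adjusted p = 0.0317). *Dmbt1*, a secreted scavenger protein that binds TFF2 and TFF3, averaged 30242 ± 5094 (SD, n = 24) and 31227 ± 4964 (SD, n = 22) normalized counts in control and Bmal1IEC-/- mice, with a log2 difference of 0.06 (SE 0.06, adjusted p = 0.627). The proposed receptors *Cxcr4*, at -0.28 (SE 0.15, adjusted p = 0.26), and *Egfr*, at 0.08 (SE 0.04, adjusted p = 0.215), did not pass. *Lingo2* and *Lingo3* did not exceed 2 counts in any of the 46 mice.

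Among the markers of the cells in the tissue, 5 of 9 epithelial genes were higher and 1 lower in Bmal1IEC-/- mice at an adjusted p under 0.05, against 5.35% and 5.43% of all genes, with a median log2 difference of 0.12. Of 6 smooth muscle genes 2 were lower, *Cnn1* and *Myh11*, against the same 5.43%, with a median of -0.19. Adjusted p ranged from 0.114 to 0.426 for the 4 T-cell genes tested and from 0.404 to 0.939 for 4 macrophage genes, and was 0.14 for *Jchain* and 0.758 for *Cd79a* of B and plasma cells. The epithelial sums were 7525 to 10074 CPM in control and 8697 to 10864 CPM in Bmal1IEC-/- mice, and the smooth muscle sums 3555 to 5705 and 3115 to 5311 CPM. Their part in the differences of *Tff2* and *Tff3* was not tested. Of 8 small intestine genes, 4 were tested and 1 was higher, against 5.35% of all genes. It was *Alpi*, an alkaline phosphatase of enterocytes, higher by a log2 difference of 0.65 (SE 0.12, adjusted p = 0.000147).

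Within 250 kb of the span of the trefoil genes, 8 other protein-coding genes start, of which 5 were tested. *Slc37a1* (chr17:31286792-31350739), a sugar phosphate transporter, had a log2 fold change of -0.22 ± 0.05 (SE, adjusted p = 0.000761) and *Abcg1* (chr17:31057675-31117988), a cholesterol exporter, of -0.34 ± 0.11 (SE, adjusted p = 0.0388). *Pde9a* had a log2 difference of 0.02 (adjusted p = 0.877), *Glp1r* of 0.17 (adjusted p = 0.426) and *Rsph1* of -0.01 (adjusted p = 0.984). *Umodl1*, *Tmprss3* and *Ubash3a* did not exceed 4 counts in any of the 46 mice.

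By rank correlation of normalized counts over the 24 control mice, genes most like *Tff3* among 9496 included *Cfl1* (rho 0.90), which encodes cofilin, *Dhrs1* (0.87), *Cd81* (0.86) and *Nelfe* (0.86). Each of these had a JTK_cycle p under 0.05 in control mice, from 8.42e-05 for *Cd81* to 0.00296 for *Nelfe* (n = 24), against 25.7% of all genes. They were picked for following *Tff3* over these same mice, so their rhythm is no separate evidence for that of *Tff3*. Between genotypes these 4 genes did not pass the test in edgeR, with adjusted p from 0.171 for *Dhrs1* to 0.853 for *Cd81*. The genes most like *Tff2* were *Tmem19* (rho 0.67), *Ighv6-3* (0.64), *Ahi1* (0.64), *Cpped1* (0.63) and *Tmem177* (0.61), none of which passed the genotype test in edgeR. At 1 to 44 counts of *Tff2* per mouse, such correlations are weak descriptions.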

How the data were processed

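Colon RNA of 48 mice, each labelled as a separate mouse, was measured by RNA-seq with a stranded kit and paired reads of 150 bases. The deposited table holds raw counts per gene, which the authors made by trimming with Trimmomatic 0.39, alignment to mm10 with STAR 2.7.5c and counting over exons with featureCounts 1.4.6 at a mapping quality of at least 4. The strand setting of the counting is not given in the sources used here. Gene names and positions came from GENCODE vM21, which held 55141 of the 55401 genes. The 46 mice of the tests were identified by the study's normalized values, whose size factors are matched when Bmal1IEC-/- mice SV384 and SV385 are left out.

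Here, genes with at least 10 counts in at least 4 mice (14776 genes) were tested in edgeR 4.0.16 (TMM, quasi-likelihood F test, Benjamini-Hochberg over all genes). Models held genotype with time as a factor, the 12 groups, genotype by period, or genotype by a 24-h cosine and sine. A call needed an adjusted p under 0.05 and a fold over 1.5. The SE of an edgeR log2 fold change was its absolute value divided by the square root of its F statistic. For *Tff2* over all times, the DESeq2 fit gave -4.7 with a larger SE of 0.494. Single genes were also tested by two-sided permutation with 100000 resamples. Rhythms were tested with an own implementation of JTK_cycle (24 h). Normalized counts are counts over DESeq2-style size factors, and TPM was computed from exonic lengths. The tests were run on simulated data with changes and rhythms larger than those of *Tff3* and changes smaller than that of *Tff2*. This check therefore does not cover effects of the sizes reported here. Alternatives were DESeq2 1.42.0, other scaling and filters, all 48 mice, and leaving out each mouse or time.

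The members and gene lists were chosen with earlier results of these data known. For each list, up to 2 genes per direction with the smallest adjusted p of the genotype effect were named, as were genes within 250 kb and the 5 genes most like *Tff2* and *Tff3*, of which 1 is not reported here. Further genes named for their level, time of day or low counts were chosen after their values were seen.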

Additional observations from a re-analysis of the deposited data

Results flagged for a closer look

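Over the 3 genes, 26 groups of 4 mice did not hold a single shared value, and in 7 of them 1 mouse had counts where the other 3 had 0. Such a group exceeds Dixon's 95% limit by construction, and the chance rate of about 1 in 20 groups does not apply to it. For *Tff2* these were Bmal1IEC-/- mice SV400 at CT9 with 2.772 normalized counts (3 counts), SV481 at CT17 with 1.003 and SV445 at CT21 with 1.005. For *Tff1* they were control mice SV412 at CT9 with 1.061, SV438 at CT17 with 0.8721 and SV433 at CT21 with 0.8648, and Bmal1IEC-/- mouse SV399 at CT17 with 0.9514, each from 1 count. SV438 was also the mouse with most *Tff2*. Outside the tests, the left-out Bmal1IEC-/- mice SV384 and SV385 had 2165 and 2830 normalized counts of *Tff3*, above the 1668 to 2037 of the 4 control mice at CT1.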

How the results depend on the processing

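The lower *Tff2* and *Tff3* over all times kept their direction under every alternative, with log2 fold changes of -5.107 to -4.313 and -0.1953 to -0.1587 when each mouse was left out in turn. With all 48 mice *Tff3* missed the threshold (-0.1258), its day value turned to 0.03264, and *Tff2* passed at CT1 (-3.71). The genes called then numbered 202 by day (114 with 46 mice), 12 for the interaction (7), 282 for the change of rhythm (136) and 1689 at CT1 (134). Without the filter on low counts, *Tff2* passed at CT1 (-3.773) and CT9 (-3.219). *Tff3* passed the adjusted p but not the fold at CT21 (-0.3506). The genes called without the filter numbered 319 over all times (202), 394 at CT1, 169 at CT5 (48), 283 at CT9 (145), 246 at CT17 (100) and 201 at CT21 (39). Leaving out each mouse gave 12 to 206 genes at CT1, moved over 1.5 times without SV454, SV455, SV468, SV469, SV479 or SV480. *Tff3* then ran from -0.02139 to 0.06915 at CT1 (sign turned without SV454, SV469 or SV480) and from -0.1004 to 0.1032 at CT9 (without SV401, SV402, SV418 or SV420). *Tff2* ran from -5.883 to -5.375 at CT5, where the call was lost without any of 28 mice (SV396, SV397, SV399, SV412, SV415, SV416, SV424, SV433, SV437, SV439 to SV445, SV447, SV453, SV454, SV469 to SV471 and SV476 to SV481), from -5.4 to -4.754 at CT13 (lost without SV395, SV396, SV397, SV424, SV448, SV449 or SV450), from -6.169 to -4.199 at CT21 (lost without SV433, SV434, SV441, SV444, SV445, SV470, SV471 or SV481) and from -6.042 to -2.738 at CT9 (passed without SV398, SV400, SV417, SV438 or SV455). Between -6.186 and -2.96 at CT1 and between -7.223 and -4.938 at CT17, *Tff2* kept its side of the threshold, as did its interaction with period (-1.758 to -0.1771). All Bmal1IEC-/- mice had 0 counts of *Tff2* at CT5 and CT13, so its log2 values there depend on the prior count and are no bound. The same holds at CT9 without SV400 and at CT21 without SV445, which held the only counts of their groups. The causes were not tested. Depth limits *Tff1* and *Tff2* in Bmal1IEC-/- mice, where 3 counts are the floor.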
